A study of Saccharomyces cerevisiae with 46 samples.

Results

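The UTP, NOP and RRP genes of budding yeast encode proteins that build ribosomes, and they were followed here in cells carrying different mCherry reporter plasmids. They were taken as every row of the gene count table whose R64 locus tag has a standard symbol of UTP, NOP or RRP followed directly by a number. This gave 53 genes (18 UTP, 17 NOP and 18 RRP) of 5696 host features, and the choice used no measured value. Of the 53, 52 passed the filter on low counts and were tested with 5142 host features in all. The remaining gene, NOP58, was listed at 0 in every library.

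Ribosome assembly starts in the nucleolus, where RNA polymerase I makes a long precursor RNA that carries the rRNAs of both subunits. On its 5′ end the UtpA, UtpB and UtpC complexes and the U3 small nucleolar ribonucleoprotein form the small-subunit processome, other factors assemble the large subunit, and the exosome trims RNA from its 3′ end. These genes are known to be transcribed together and to fall together under stress, and many of their promoters carry short elements called PAC and RRPE.

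The host was BY4741, a MATa laboratory strain. Cultures in SC-Ura, a medium without uracil, were kept at 30 °C with shaking at 200 rpm for 4 h and reached an OD600 of 0.7. The study probed terminators as modular regulators of expression, and its 3′-end sequencing read host transcripts along with the reporter. The mCherry gene sat on a low copy plasmid in 1 of 3 contexts. In the first, 12 libraries carried the promoter and terminator of RPS3 (pRPS3-tRPS3). In the second, 10 carried the promoter of PGK1 with the RPS3 terminator (pPGK1-tRPS3), and in the third, 10 carried both parts of TSA1 (pTSA1-tTSA1). In each context the terminator was unmodified (WT) or carried inserts at 3 sites: random sequence only (modNNN), motif T in the middle site (modNTN), motif A in the last 2 sites (modNAA), or motif H on either side of motif T (modHTH). There were 4 libraries of pRPS3-tRPS3 modNNN and 2 of every other plasmid, among them POT1-ccdB, which has no mCherry. The labels name neither a batch nor separate starting cultures, so p-values measure the spread between these libraries, which may be technical, and context cannot be told apart from anything else that went with it.

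The libraries of pRPS3-tRPS3 held 1013603 to 2129339 counts each. Those of pPGK1-tRPS3 held 1387659 to 2734801, those of pTSA1-tTSA1 1276603 to 3849179, and the POT1-ccdB libraries 3667925 and 1892144. Of the strain markers, MFA2, a MATa pheromone gene, had 1568 to 6188 counts, and the MATalpha pheromone gene MF(ALPHA)1 had 0 to 5. The MATalpha genes STE3 and SAG1 were not absent, at 3 to 27 and 8 to 65 counts. By comparison, the MATa genes STE6 and AGA2 had 45 to 149 and 39 to 227. MET17 and LEU2, deleted in BY4741, had 0 and 0 to 2. HIS3, of which this strain is known to lack only a part, had 94 to 427. Levels below are read counts relative to library size (CPM, scaled by TMM), and the reads come from transcript 3′ ends, so they were not divided by gene length. A gene is called higher or lower where edgeR's quasi-likelihood test gave a Benjamini-Hochberg adjusted p under 0.05 over all 5142 features. In bulk RNA of this kind, fewer cells expressing a gene and less RNA per cell cannot be told apart.

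The summed level of the 52 genes was highest in pTSA1-tTSA1. Those libraries held 6955 to 8975 CPM with a median of 7815. The pRPS3-tRPS3 libraries held 5113 to 7582 CPM with a median of 6252, and the pPGK1-tRPS3 libraries 4343 to 5980 CPM with a median of 5157. The POT1-ccdB libraries stood at 4793 and 5168 CPM. The pTSA1-tTSA1 libraries lay above all of pPGK1-tRPS3 and POT1-ccdB, but their range overlapped that of pRPS3-tRPS3, where 2 of the 4 modNNN libraries reached 7439 and 7582 CPM.

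A list of 18 general stress response genes, chosen with earlier results of these data known, was lowest in pTSA1-tTSA1. Its summed level was 1976 to 2703 CPM in pTSA1-tTSA1, 2624 to 6622 CPM in pRPS3-tRPS3, 3525 to 5480 CPM in pPGK1-tRPS3, and 7580 and 6137 CPM in POT1-ccdB. The medians of pRPS3-tRPS3 and pPGK1-tRPS3 were close on this list, at 4473 and 4450 CPM. Within pRPS3-tRPS3, the modNNN libraries at 7439 and 7582 CPM of the assembly genes had 2624 and 2712 CPM of the stress list, and the modHTH libraries at 5113 and 5215 CPM had 5731 and 6622 CPM. The part of growth state or stress in the differences below was not tested.

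**Figure D1:**
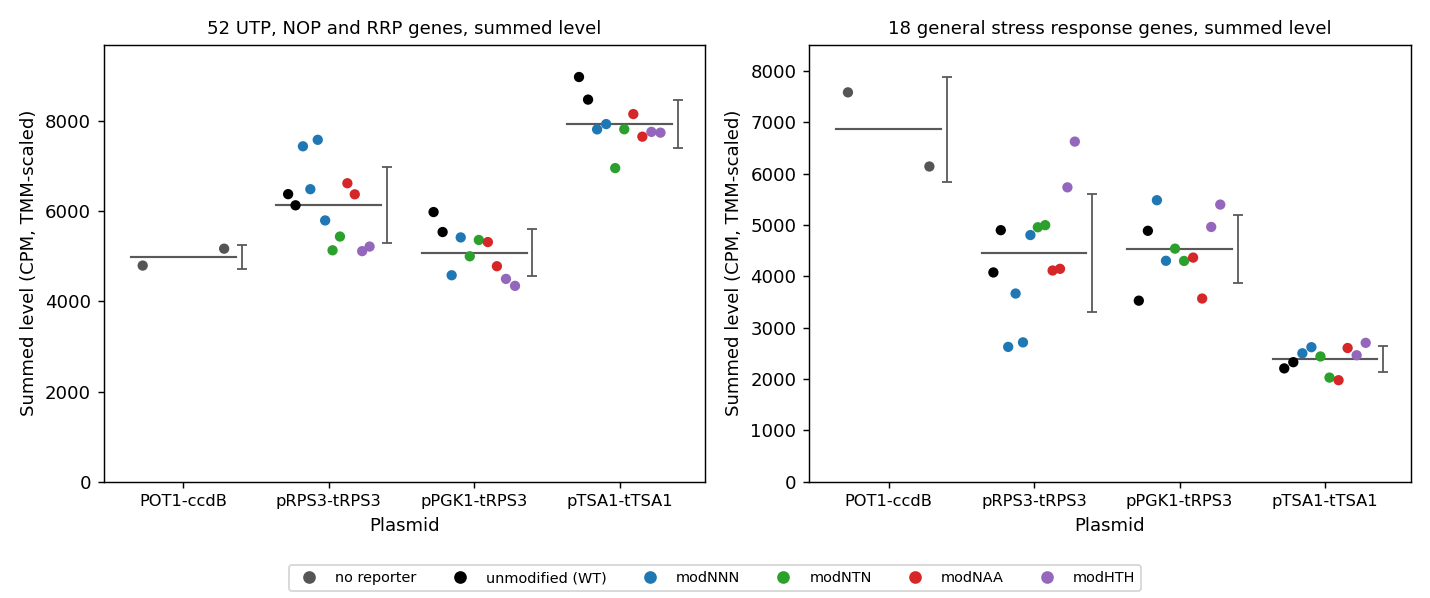
Summed level (CPM, TMM-scaled) of the 52 UTP, NOP and RRP genes, left, and of 18 general stress response genes, right, with 1 point per library, coloured by terminator, lines for the mean and bars for the SD of each context. The pTSA1-tTSA1 libraries lie between 6955 and 8975 CPM on the left and between 1976 and 2703 CPM on the right. Their range overlaps that of pRPS3-tRPS3 in both panels.

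Between pTSA1-tTSA1 and pRPS3-tRPS3, which differ in both promoter and terminator, 42 of the 52 genes were higher in pTSA1-tTSA1 and 0 were lower by edgeR and also by DESeq2. Over all features, 24.2% were called higher and 23.8% lower. At an unadjusted p under 0.05, 43 of the genes passed, against 52.9% of all features. The median log2 fold change was 0.66 over the 52 genes and 0.01 over all features, and the genes ranged from −0.08 to 1.34. For 17 genes every pTSA1-tTSA1 library lay above every pRPS3-tRPS3 library, which held for 3.68% of all features. By name, 17 of 18 UTP genes, 15 of 18 RRP genes and 10 of 16 tested NOP genes were called higher.

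All 4 UtpB genes and all 6 UtpA genes were called. UtpB binds the precursor after UtpA, with U3. UTP6, a UtpB subunit (YDR449C, chrIV:1357580-1358902), had a lowest, median and highest level of 12.5, 20.9 and 23.7 CPM in pRPS3-tRPS3, and of 37.3, 48.4 and 78.2 CPM in pTSA1-tTSA1. The ranges did not overlap, and UTP6 differed by 1.34 on the log2 scale (SE 0.12, adjusted p 5.71e-10). UTP18, another UtpB subunit (YJL069C, chrX:310922-312706), ran from 21.4 to 46.7 CPM with a median of 31.5 in pRPS3-tRPS3, and from 56.9 to 83.9 CPM with a median of 71.0 in pTSA1-tTSA1. This gap was also complete, at 1.16 on the log2 scale (SE 0.09, adjusted p 1.71e-11). UTP21 and UTP13, the other UtpB members, changed by 0.71 (SE 0.10) and 0.57 (SE 0.08), with ranges that overlapped.

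UtpA is the complex that binds the precursor first. Its members ran from 0.42 (SE 0.08) for UTP10 to 1.04 (SE 0.08) for UTP9, with a median of 0.82. UTP9 had 43.6 to 96.8 CPM in pRPS3-tRPS3 with a median of 60.9, and 104 to 145 CPM in pTSA1-tTSA1 with a median of 127. UTP15 was the least even of the 52 genes between replicates, with a within-group SD of 0.46 on the log2 scale against a median of 0.20 over the genes and 0.22 over all features.

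Of the small nucleolar ribonucleoprotein genes, RRP9 was the 1 called. RRP9, the protein particular to U3 (YPR137W, chrXVI:802359-804080), had 29.3, 46.1 and 61.2 CPM as lowest, median and highest level in pRPS3-tRPS3 and 78.3, 88.1 and 105 CPM in pTSA1-tTSA1. No library overlapped, and the gene changed by 1.06 on the log2 scale (SE 0.08, adjusted p 2.23e-11). NOP1, the fibrillarin methyltransferase of all box C/D particles (YDL014W, chrIV:427364-428347), had 493, 622 and 802 CPM against 577, 605 and 690 CPM. Its log2 fold change was 0.04 (SE 0.07, adjusted p 0.675), and the pTSA1-tTSA1 libraries lay inside the pRPS3-tRPS3 range. NOP56, a box C/D scaffold protein, stood at 0.08 (SE 0.07, adjusted p 0.376), and NOP10, a small subunit of the H/ACA particles that guide pseudouridylation, at 0.06 (SE 0.06, adjusted p 0.495).

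Of the UtpC genes, UTP22 was called at 0.34 (SE 0.10, adjusted p 0.00464), and RRP7 stood at 0.03 (SE 0.16, adjusted p 0.887) with a within-group SD of 0.41. Of 15 other small-subunit factors 12 were called, led by UTP11 at 1.05 (SE 0.10) and UTP25 at 0.99 (SE 0.09). The exceptions were RRP5, which takes part in both subunits, at 0.12 (SE 0.07), UTP20 at 0.16 (SE 0.07) and NOP6 at 0.18 (SE 0.10). Of 14 large-subunit factors 12 were called, with the highest value for NOP15 at 0.88 (SE 0.08). The 2 others were NOP2, an rRNA methyltransferase, at 0.18 (SE 0.10), and NOP7, the yeast pescadillo protein, at 0.05 (SE 0.07). Another annotated transcript on the same strand overlaps the 3′ ends of UTP11 and NOP15, so their counts are uncertain.

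The exosome genes had a median of 0.38. Of 7, the 6 called were RRP4 at 0.61 (SE 0.10), RRP40 at 0.48 (SE 0.08), RRP42 at 0.46 (SE 0.10), RRP6, a nuclear exonuclease, at 0.38 (SE 0.06), RRP43 at 0.30 (SE 0.08) and RRP45 at 0.30 (SE 0.07). RRP4 and RRP40 are RNA-binding cap subunits, and RRP42, RRP43, RRP45 and RRP46 belong to the ring. RRP46 had 36.5, 52.9 and 65.9 CPM in pRPS3-tRPS3 as lowest, median and highest level, and 39.3, 46.9 and 52.9 CPM in pTSA1-tTSA1. It was the gene with the lowest value of the 52, at −0.08 (SE 0.08, adjusted p 0.424), and its pTSA1-tTSA1 libraries lay inside the pRPS3-tRPS3 range.

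**Figure D2:**
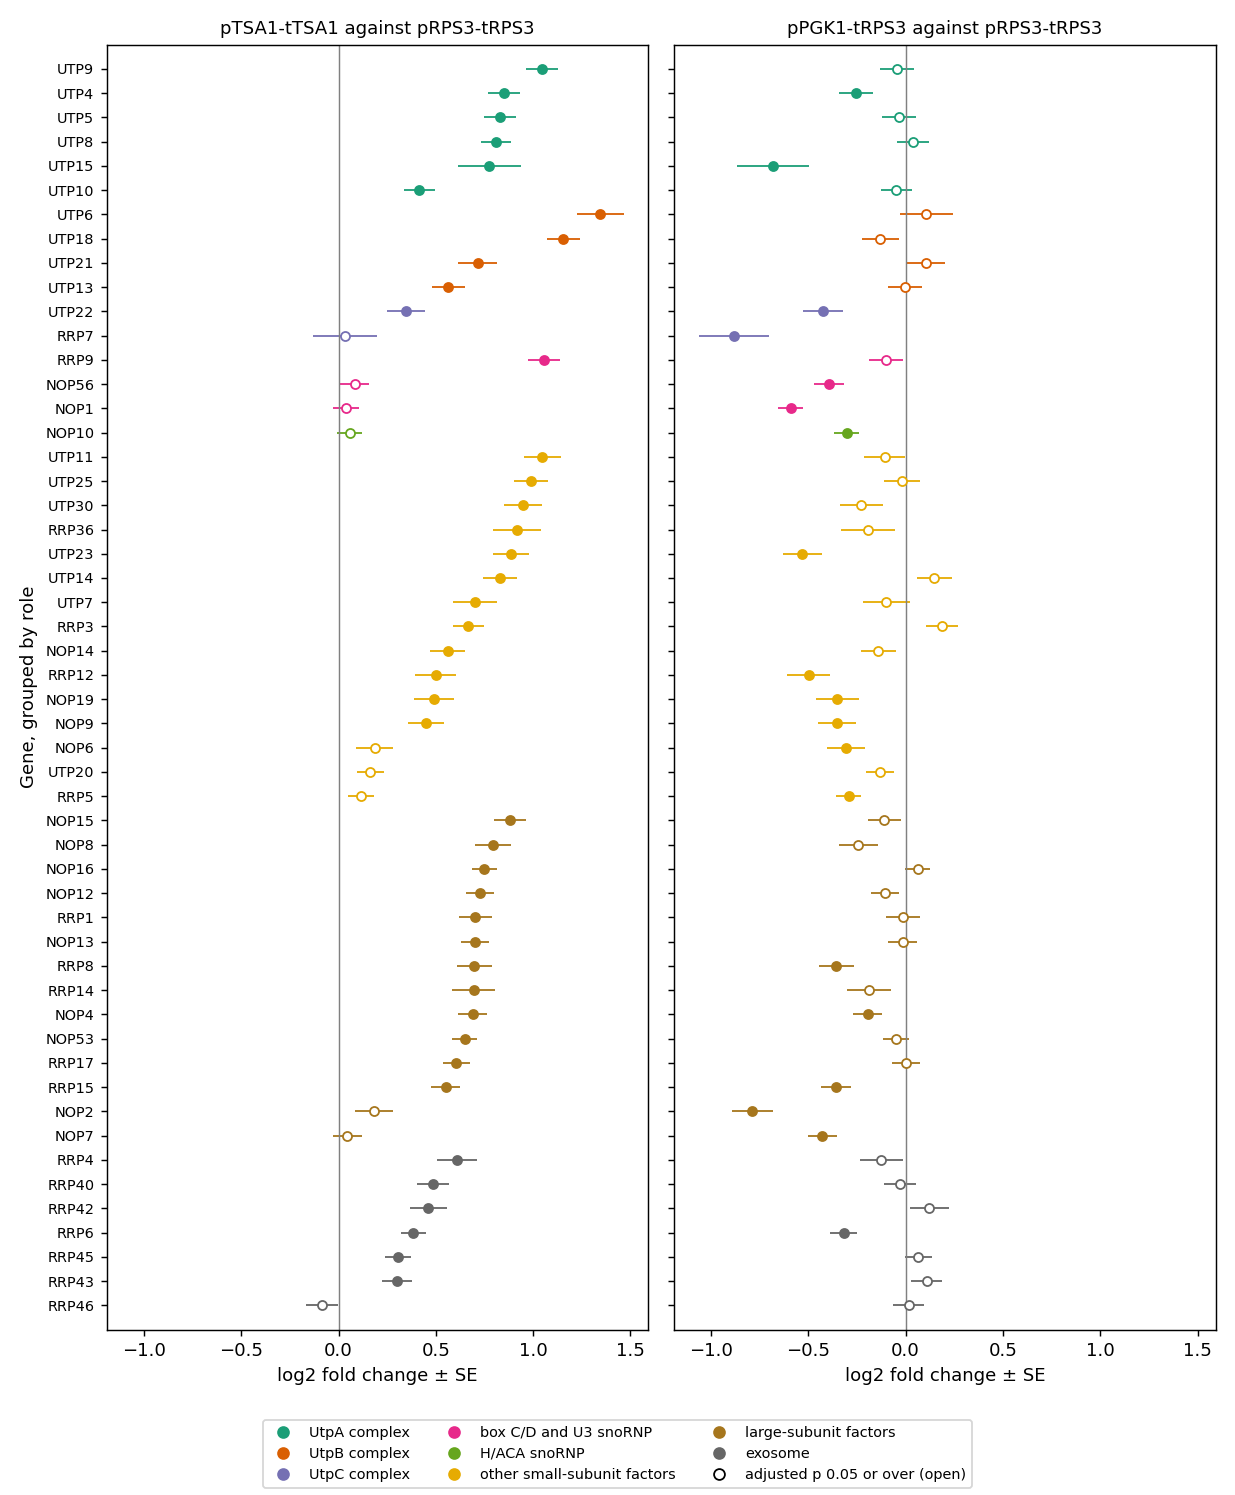
Log2 fold change ± SE of each of the 52 genes, grouped by role, in pTSA1-tTSA1 against pRPS3-tRPS3, left, and in pPGK1-tRPS3 against pRPS3-tRPS3, right (edgeR, TMM scaling, closed points at adjusted p under 0.05). UTP6 has the highest value on the left at 1.34, and RRP7 the lowest on the right at −0.88; both panels use the same pRPS3-tRPS3 libraries.

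The 5 genes with the highest mean level were among those not called. NOP10 averaged 616 CPM over the 34 libraries, NOP1 552, RRP5 543, NOP7 352 and NOP56 325, and their log2 fold changes lay between 0.04 and 0.12. The next in level, UTP10 at 256 CPM, was called at 0.42. As a description across genes measured in the same libraries, the Spearman correlation of mean level and log2 fold change was −0.36 over the 52 genes and 0.09 over all 5142 features.

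**Figure D3:**
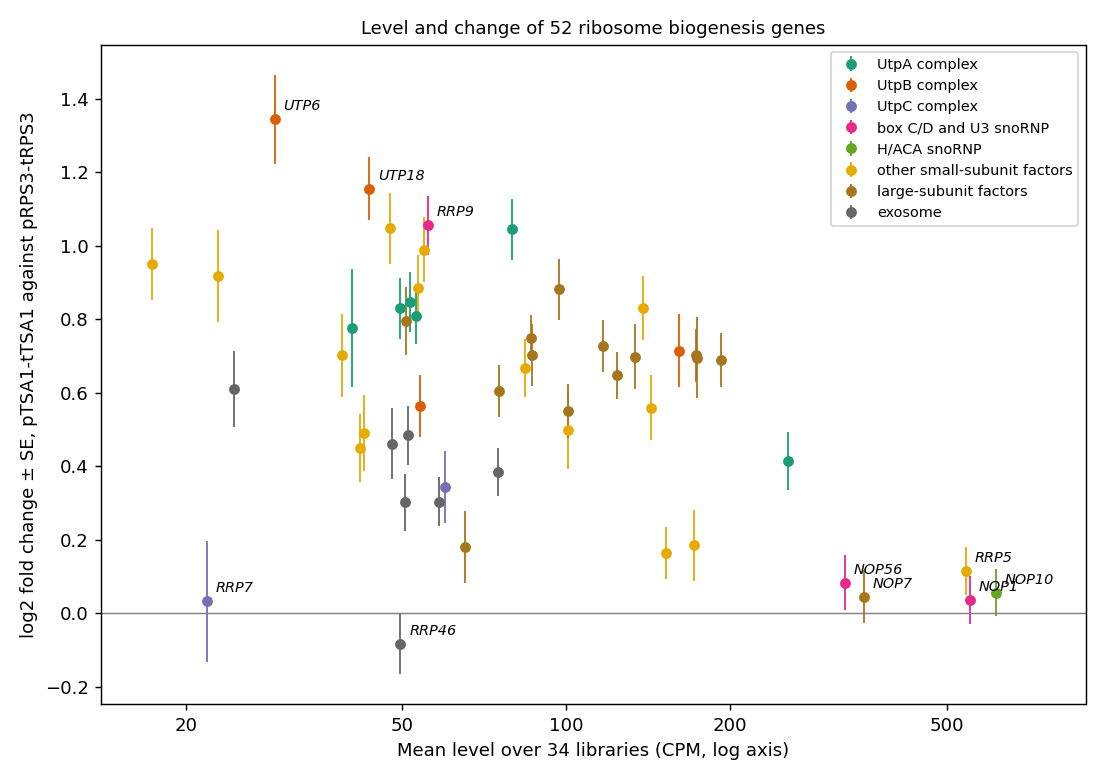
Mean level over 34 libraries (CPM, log axis) against log2 fold change ± SE in pTSA1-tTSA1 against pRPS3-tRPS3 for the 52 genes, coloured by role. The 5 genes with the highest mean level, NOP10, NOP1, RRP5, NOP7 and NOP56, lie between 0.04 and 0.12, and UTP6 is highest at 1.34.

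The higher levels were seen with each terminator. With the unmodified terminator, 46 of the 52 genes had both pTSA1-tTSA1 libraries above both pRPS3-tRPS3 libraries, against 31.8% of all features. The numbers were 44 with modNTN (30.1% of all features), 38 with modNAA (27.5%) and 48 with modHTH (32.8%). With modNNN, where 2 libraries were set against 4, it was 31 genes (14.8%). The median log2 difference of the genes ran from 0.46 with modNNN to 0.73 with modNTN.

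Between pPGK1-tRPS3 and pRPS3-tRPS3, which share the terminators and differ in promoter, 19 of the 52 genes were lower in pPGK1-tRPS3 and 0 higher in edgeR with TMM scaling, and DESeq2 gave 17 and 0. Over all features, 20.6% were called lower and 17.7% higher. At an unadjusted p under 0.05, 21 of the 52 genes passed, against 46.6% of all features. The median log2 fold change was −0.13 over the genes and 0.01 over all features. The direction depended on scaling: with library totals in place of TMM the median of all features moved to 0.18, the median of the genes to 0.05, and the calls to 9 lower and 8 higher. All 9 were among the 19. With TMM, 46.1% of all calls were higher, and with library totals 77.5%. Relative to the median of all features, the genes lay at −0.13 under both scalings.

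RRP7, which works with UTP22 in UtpC, had 14.1, 24.3 and 35.5 CPM as lowest, median and highest level in pRPS3-tRPS3 and 8.11, 12.6 and 25.3 CPM in pPGK1-tRPS3. Its log2 fold change was −0.88 (SE 0.18, adjusted p 0.000441), with ranges that overlapped. NOP2 had 53.4, 72.6 and 92.9 CPM against 24.5, 41.7 and 65.7 CPM, at −0.79 (SE 0.11, adjusted p 3.10e-06). UTP15 had 26.5, 35.8 and 51.2 CPM against 9.41, 23.3 and 43.0 CPM, at −0.68 (SE 0.18, adjusted p 0.00457). NOP1 was the 1 gene of the 52 whose 10 pPGK1-tRPS3 libraries, at 298 to 459 CPM, all lay below the 12 pRPS3-tRPS3 libraries, at 493 to 802 CPM. That complete gap held for 0.972% of all features, and NOP1 stood at −0.59 on the log2 scale (SE 0.07, adjusted p 2.71e-07).

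By role, with TMM and against 20.6% of all features, 2 of 2 UtpC genes, 2 of 3 box C/D and U3 genes, the H/ACA gene NOP10, 6 of 15 other small-subunit factors, 5 of 14 large-subunit factors, 2 of 6 UtpA genes, 1 of 7 exosome genes and 0 of 4 UtpB genes were called lower. NOP10 stood at −0.30 (SE 0.06) and NOP56 at −0.39 (SE 0.08). The exosome gene called was RRP6 at −0.32 (SE 0.07), while RRP43, RRP42 and RRP45 stood at 0.11 (SE 0.08), 0.12 (SE 0.10) and 0.07 (SE 0.07). The other exosome values were −0.12 (SE 0.11) for RRP4, −0.03 (SE 0.08) for RRP40 and 0.02 (SE 0.08) for RRP46. With library totals 10 of the 19 were not called lower: UTP4 of UtpA, the small-subunit factors NOP6, NOP9, NOP19 and RRP5, the large-subunit factors NOP4, RRP8 and RRP15, and RRP6 and NOP10. RRP6 and NOP10 then stood at −0.15 and −0.13, and RRP42, RRP43 and RRP45 were called higher, at 0.29, 0.28 and 0.24.

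The counts by terminator varied, and the difference between terminators was not tested. With modNAA, 37 of the 52 genes had both pPGK1-tRPS3 libraries below both pRPS3-tRPS3 libraries and 2 had both above, against 31.2% and 31.6% of all features. With modHTH the numbers were 22 below and 5 above (28.1% and 27.5% of all features), and with modNNN 16 below and 0 above (13.5% and 14.1%). With the unmodified terminator they were 14 below and 13 above (22.2% and 20.1%), and with modNTN 12 below and 14 above (23.4% and 22.7%), both near the shares over all features.

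Between pTSA1-tTSA1 and pPGK1-tRPS3, 51 of the 52 genes were higher in pTSA1-tTSA1 and 0 lower, against 32.1% and 29.0% of all features. At an unadjusted p under 0.05, 51 passed, against 64.5% of all features. DESeq2 called 50 higher and 0 lower, and library totals 47 higher and 1 lower, RRP46 at −0.32. The median log2 fold change of the genes was 0.77, and 0.55 with library totals. For 28 genes every library of pTSA1-tTSA1 lay above every library of pPGK1-tRPS3, which held for 7.18% of all features.

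UTP15 had the highest value, with 9.41, 23.3 and 43.0 CPM in pPGK1-tRPS3 and 41.8, 63.3 and 86.7 CPM in pTSA1-tTSA1. Its ranges overlapped by little, and it differed by 1.46 on the log2 scale (SE 0.17, adjusted p 5.13e-08). UTP23, a processome protein that acts with the snR30 small nucleolar RNA, had 21.1, 32.1 and 41.9 CPM against 74.98, 85.0 and 94.8 CPM. The gap was complete, at 1.42 (SE 0.10, adjusted p 1.81e-12), and UTP18 followed at 1.28 (SE 0.09, adjusted p 2.08e-12). NOP1, NOP56 and NOP10 were called here at 0.63 (SE 0.07), 0.48 (SE 0.08) and 0.36 (SE 0.07). The exosome values were RRP4 at 0.73 (SE 0.10), RRP6 at 0.70 (SE 0.07), RRP40 at 0.51 (SE 0.08), RRP42 at 0.34 (SE 0.10), RRP45 at 0.24 (SE 0.07), RRP43 at 0.19 (SE 0.08) and RRP46 at −0.10 (SE 0.08, adjusted p 0.299). With library totals RRP42, RRP43 and RRP45 were not called, at 0.12, −0.03 and 0.02. The 3 context pairs share libraries, so they are not independent of each other.

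**Figure D4:**
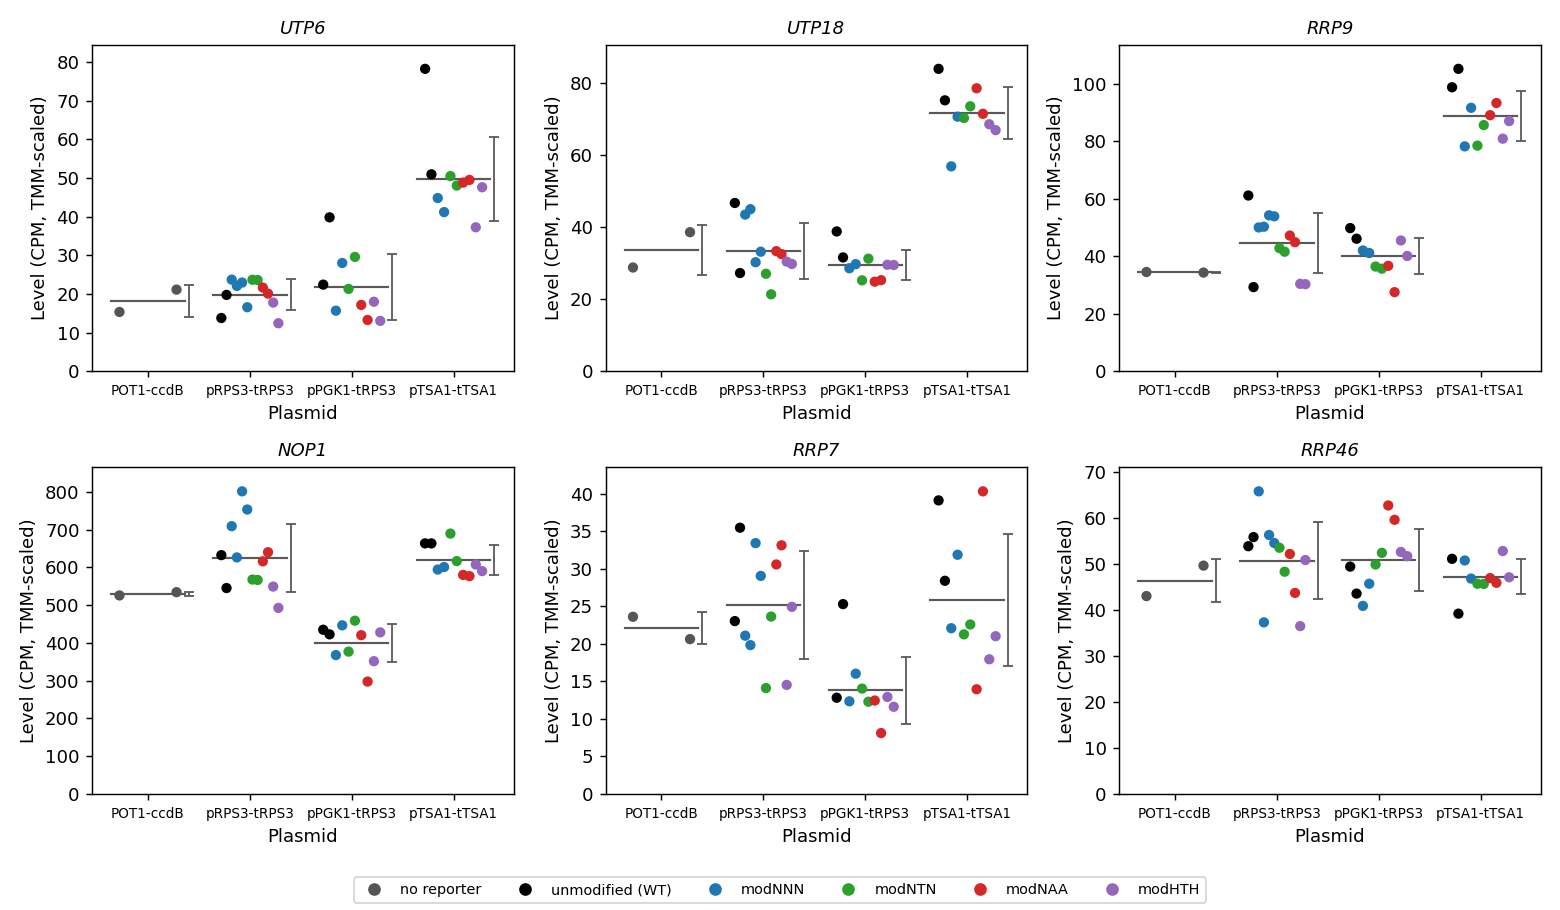
Level (CPM, TMM-scaled) of 6 of the genes in each library, by plasmid, coloured by terminator, with lines for the mean and bars for the SD of each context. UTP6, UTP18 and RRP9 have no pTSA1-tTSA1 library inside the pRPS3-tRPS3 range, while NOP1 has no pPGK1-tRPS3 library inside it. RRP7 overlaps in part, with its pPGK1-tRPS3 median below the pRPS3-tRPS3 range, and RRP46 has its pTSA1-tTSA1 libraries inside that range.

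Against POT1-ccdB, the reporter plasmids as 1 group had 24 of the 52 genes higher and 0 lower, against 4.80% and 7.16% of all features. The median log2 fold change was 0.42 over the genes and −0.00 over all features. At an unadjusted p under 0.05, 37 genes passed, against 25.6% of all features. DESeq2 called 22 higher and 0 lower. The count rests on 2 POT1-ccdB libraries: without replicate 1 of POT1-ccdB 3 genes were called, and without replicate 2 of POT1-ccdB 10. It was 15 with 1 coefficient per context.

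UTP14, which activates a helicase of the processome, had 83.1 and 88.3 CPM in POT1-ccdB, and the lowest, median and highest levels were 76.1, 116 and 166 CPM in pRPS3-tRPS3, 86.1, 127 and 162 CPM in pPGK1-tRPS3 and 147, 191 and 237 CPM in pTSA1-tTSA1. The log2 fold change over all reporters was 0.68 (SE 0.16, adjusted p 0.00407), and pTSA1-tTSA1 was the context with no overlap. UTP25 followed at 0.67 (SE 0.15, adjusted p 0.00424), with 30.5 and 38.1 CPM in POT1-ccdB. NOP15 stood at 0.64 (SE 0.15, adjusted p 0.00405) and the DEAD-box helicase gene RRP3 at 0.64 (SE 0.14, adjusted p 0.00235). RRP17, a large-subunit factor, was the 1 gene with every reporter library above both POT1-ccdB libraries, which held for 0.506% of all features.

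The core small nucleolar genes were not called, with NOP1 at −0.00 (SE 0.11), NOP56 at 0.00 (SE 0.12) and NOP10 at 0.10 (SE 0.11). The exosome values were 0.40 (SE 0.17) for RRP4, 0.40 (SE 0.13) for RRP43, 0.36 (SE 0.11) for RRP45, 0.29 (SE 0.13) for RRP40, 0.26 (SE 0.16) for RRP42, 0.20 (SE 0.11) for RRP6 and 0.10 (SE 0.13) for RRP46. Only RRP43 and RRP45 of these were called, and neither with DESeq2 or library totals.

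Taken by context against the same POT1-ccdB libraries, pTSA1-tTSA1 had 45 genes higher and 0 lower (17.4% and 19.1% of all features), with a median of 0.93. At an unadjusted p under 0.05, 46 genes passed, against 44.4% of all features. Here 44 genes had every pTSA1-tTSA1 library above both POT1-ccdB libraries, against 17.7% of all features. UTP6 was highest at 1.47 (SE 0.22), and RRP46, RRP7, NOP56, NOP1, NOP10, NOP6 and UTP15 were not called. In pRPS3-tRPS3 edgeR and DESeq2 called 0 genes in either direction (in edgeR 0.0389% of all features were called higher and 0.233% lower). At an unadjusted p under 0.05, 23 genes passed in edgeR, against 10.6% of all features, and 19 in DESeq2. The median was 0.29, or 0.19 without replicate 1 of POT1-ccdB, and the values ran from −0.23 for UTP15 to 0.55 for NOP2. In pPGK1-tRPS3, 4 were higher and 2 lower (4.28% and 8.25% of all features), with a median of 0.13. These were RRP3 at 0.54 (SE 0.14), UTP14 at 0.50 (SE 0.16), NOP16 at 0.41 (SE 0.12), NOP53 at 0.37 (SE 0.12), NOP1 at −0.41 (SE 0.11) and UTP15 at −0.92 (SE 0.28). Without replicate 1 of POT1-ccdB 0 were called in pPGK1-tRPS3 and the median was 0.059.

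**Figure D5:**
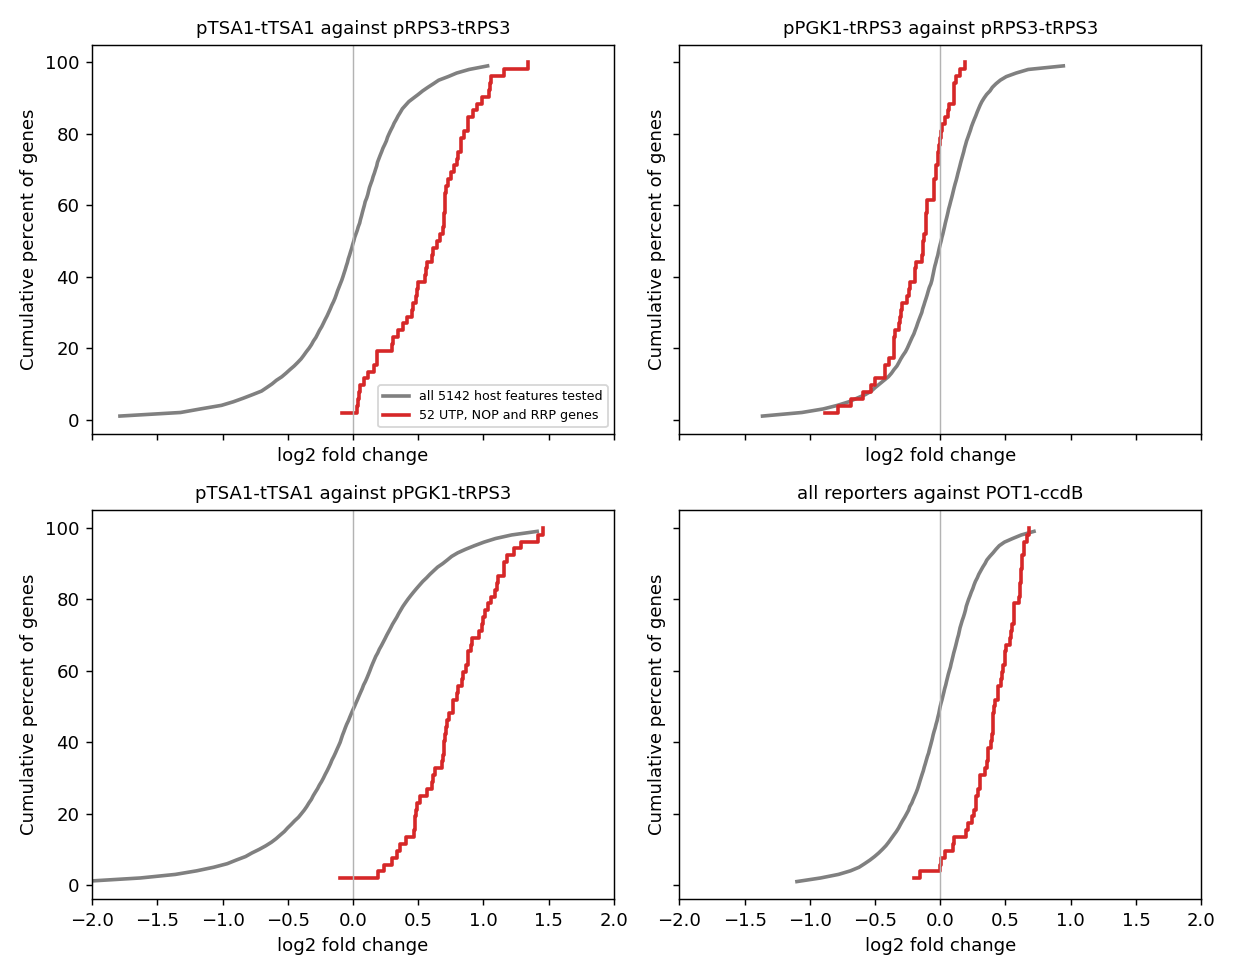
Cumulative percent of genes against log2 fold change in 4 comparisons, for the 52 UTP, NOP and RRP genes (red) and all 5142 host features tested (grey, from percentiles 1 to 99). The medians of the 52 genes are 0.66, −0.13, 0.77 and 0.42, and those of all features 0.006, 0.006, 0.011 and −0.001.

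Inserts in the terminator gave no called gene in edgeR. Over the 3 contexts, 0 of the 52 genes were called for modNTN, modHTH, modNAA or the unmodified terminator against modNNN, for modNTN against 0% of all features higher and 0.0194% lower, for modHTH against 0.253% and 0.175%, for modNAA against 0% and 0%, and for the unmodified terminator against 0% and 0.0583%. At an unadjusted p under 0.05, 15, 24, 2 and 3 genes passed in that order, against 5.54%, 11.4%, 6.51% and 5.78% of all features. With DESeq2, 11, 21, 2 and 1 genes passed, and 1 gene was called lower for modHTH and 0 in the others. The median log2 fold changes of the genes were −0.14, −0.20, −0.01 and 0.12. They rest in part on the pPGK1-tRPS3 modNNN libraries: in the same order they were −0.20, −0.27, −0.07 and 0.08 without replicate 1 of that plasmid, and −0.07, −0.13, 0.05 and 0.17 without replicate 2, so that modNAA turned sign. Of the 52 values, 47 were below 0 with modNTN and 49 with modHTH, where the medians of all features were −0.004 and −0.007. UTP20 had the lowest adjusted p with modHTH, 0.099, at −0.34 (SE 0.09), and RRP12 the lowest value with modNTN, at −0.43 (SE 0.14, adjusted p 0.894).

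These values differed between contexts, though the difference was not tested. With modNTN the median log2 difference from modNNN was −0.38 in pRPS3-tRPS3, 0.06 in pPGK1-tRPS3 and −0.11 in pTSA1-tTSA1. With modHTH it was −0.36, −0.18 and −0.04 in the same order. In pRPS3-tRPS3 the summed level was 5794, 6487, 7439 and 7582 CPM with modNNN, 5132 and 5437 CPM with modNTN and 5113 and 5215 CPM with modHTH. The summed stress list stood at 4802, 3663, 2624 and 2712 CPM in the same modNNN libraries, and its part was not tested.

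Genes of the same pathway outside the UTP, NOP and RRP names were counted in the same way, and their likeness to the 52 genes was not tested. The lists were chosen with earlier results of these data known. The shares over all features are 24.2% higher and 23.8% lower in the first pair below, and 17.7% and 20.6% in the second. Of 97 tested genes of a list of other ribosome assembly factors, 86 were higher and 1 lower in pTSA1-tTSA1 against pRPS3-tRPS3, and 0 higher and 41 lower in pPGK1-tRPS3 against pRPS3-tRPS3. The highest were REI1 at 1.38 (SE 0.11) and BFR2 at 1.36 (SE 0.11). The 1 lower was MDN1, the large AAA ATPase of large-subunit assembly, at −0.23 (SE 0.09, adjusted p 0.043), and NSR1 was lowest in the second pair, at −1.30 (SE 0.11). Of 8 RNA polymerase I genes, 7 were higher and 0 lower in the first pair and 0 higher and 3 lower in the second. Of 7 other exosome genes, 5 were higher and 0 lower in the first pair, and 0 higher and 1 lower in the second. In all reporters against POT1-ccdB, 4.80% of all features were called higher and 7.16% lower. Of the 97 other assembly factors, 50 were higher there and 0 lower. Of the RNA polymerase I genes 4 of 8 were higher and 0 lower, and of the other exosome genes 0 of 7 were called in either direction. Of the 18 stress genes, 15 were lower and 1, HSP12, higher in the first pair, 3 lower and 7 higher in the second, and 17 lower and 0 higher in all reporters against POT1-ccdB. The list counts are with TMM scaling and were not recomputed with library totals, which turned part of the second pair's calls above. PGM2 and GPH1 were lowest in the first pair, at −2.27 (SE 0.11) and −2.24 (SE 0.12).

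The shared promoter elements are shown because so many of the genes moved together. In R64 (RefSeq), the PAC core GATGAG was searched in both orientations in the 250 bases before the start codon. It was found for 43 of the 53 genes (81.1%), against 17.0% of 6001 protein-coding genes. The RRPE core GAAAATT was found for 29 of 53 (54.7%), against 15.6% of all, and both for 23 (43.4%), against 3.8%. The core nearest the start codon lay 32 to 216 bases before it, with a median of 105. The PAC core was as frequent in the 42 genes called higher in pTSA1-tTSA1 (34) as in the 10 not called (8), and the RRPE core was in 21 and 7 of them. A match of letters is a description, not evidence of a bound factor. Below, 30 bases are given 5′ to 3′ on the strand of the gene, first for 5 genes with a high value in pTSA1-tTSA1 against pRPS3-tRPS3, then for 4 that were not called and for the uncounted NOP58. Capitals mark PAC and RRPE cores in either orientation.
UTP6, chrIV:1358990-1359019, minus strand: aaagatctgggcGATGAGctaaatatcagg
UTP18, chrX:312759-312788, minus strand: atttcacCTCATCTCATCgatcactctggt
RRP9, chrXVI:802227-802256, plus strand: tgacattttataGATGAGctttgattaaac
UTP11, chrXI:256584-256613, minus strand: tggctaGATGAGCTCATCgcgatttgaaga
UTP9, chrVIII:491810-491839, plus strand: gaaaaatttaacGATGAGatggagttttca
NOP7, chrVII:695286-695315, plus strand: gcGATGAGATGAGATGAGaaaaaatgaaaa
NOP1, chrIV:427148-427177, plus strand: caaattggaaagCTCATCtctcttgaatgt
NOP2, chrXIV:510418-510447, plus strand: gaataagtttaaGATGAGctgagctgcaaa
NOP56, chrXII:545958-545987, plus strand: atttttttgagtGATGAGatgggaaatgaa
NOP58, chrXV:898465-898494, minus strand: aaatttttcaacCTCATCGAAAATTTTCag
UTP6, with 1.34 on the log2 scale, has 1 PAC core, and NOP7, with 0.05, has 3 overlapping ones. The median log2 fold change was 0.69 over the 42 tested genes with the PAC core and 0.42 over the 10 without. It was 0.67 over the 28 with the RRPE core and 0.64 over the 24 without.

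The study's motif T, TGTACAATA, starts with TGTA, as the binding sites of yeast Puf proteins are known to do. The host 3′ ends were searched for it on the transcript strand from the stop codon to the end of the deposited annotation, which held 49 of the 53 genes and not RRP5, UTP4, UTP10 and UTP20. Motif T was in 0 of the 49 genes, against 0.642% of 4672 transcripts, and motif H, TTTCATTTC, in 0, against 1.03%. Motif A, ATATTC, was in 6 (12.2%), against 17.7%. A wider pattern, TGTANANTA, where N is any base, was in 17 of the 49 (34.7%), against 8.41% of all transcripts. In a fixed 150 bases after the stop codon it was in 22 of 53 (41.5%), against 6.25%. The sites of 5 of the 17 genes with this wider pattern are given, again 5′ to 3′ on the gene's strand in R64, with the pattern in capitals. Whether the pattern acts as motif T does was not tested.
NOP1, chrIV:428470-428494, plus strand: ctcgacttTGTAAAATAgatattac
RRP9, chrXVI:804182-804206, plus strand: gtatctttTGTAAAATAtctaaaaa
UTP8, chrVII:747910-747934, minus strand: gattgtatTGTATAATAcctatata
NOP10, chrVIII:241856-241880, plus strand: gggaatatTGTATAGTAcgtgattc
RRP15, chrXVI:819115-819139, plus strand: ataaaaacTGTATATTAtttagtct
NOP1 and RRP9 hold the same 9 letters and had 0.04 and 1.06 in pTSA1-tTSA1 against pRPS3-tRPS3. With modNTN against modNNN, the median log2 fold change was −0.19 over the 17 genes with the pattern and −0.13 over the 31 tested genes without it. With modHTH it was −0.24 and −0.17, and no gene of either set was called.

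NOP58, the partner of NOP56 in box C/D particles, is needed for growth of yeast, so a level of 0 in all 34 libraries is a count listed at 0 and not a level of the transcript. The annotated transcript of YOR309C reaches into its last 200 bases on the same strand and was counted at 186 to 933, and its other neighbour DGK1 at 163 to 607. Whether reads of NOP58 were given to a neighbour or dropped was not tested. Another annotated transcript on the same strand likewise overlaps the 3′ end of NOP15, UTP11 and UTP30, so their counts are uncertain in the same way. For 21 of the 49 annotated genes a transcript on the opposite strand does so, and whether counting used strand is not given in the sources used here.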

How the data were processed

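The authors deposited whole-number read counts per gene from QuantSeq REV, a 3′-end library method. Per the submitters' processing notes, FastQC, cutadapt, HISAT2, featureCounts, bedtools, MultiQC and SAMtools were used with the builds sacCer3 and R64, and their versions, settings and use of strand are not given in the sources used here. Of 46 samples, 34 had a column of deposited counts, and 12 were not analysed here. The model was edgeR's quasi-likelihood fit (R 4.3.3, edgeR 4.0.16, with limma 3.58.1) after filterByExpr, with TMM scaling, library totals that include the plasmid features, and 1 coefficient for each of 16 plasmid groups. Contrasts were averaged over groups and tested with Benjamini-Hochberg adjustment over 5142 host features. Full statistics are given for the 3 highest and 3 lowest called genes of each main comparison, the core small nucleolar genes, the exosome genes and examples from UtpA and UtpB. UTP9, UTP10, UTP11, UTP20, UTP22, UTP25, RRP5, RRP12, RRP17, NOP6, NOP7 and NOP15 were also named, some after their values were seen. The genes given in full and the lists of other genes were chosen with earlier results of these data known, while the 53 genes were set by symbol. Promoters were cut from the R64 genome as the 250 bases before each start codon. Alternatives were library totals, upper-quartile scaling, other low-count filters, a replicate block, a residual component, only the groups compared, 1 coefficient per context, DESeq2 1.42.0 and leaving out each library. The fit was also run on counts simulated from its own fitted spread, which cannot show that it suits these libraries. Replicates differed by more than sampling noise in every group.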

Additional observations from a re-analysis of the deposited data

Results flagged for a closer look

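In 8 of 63 groups of libraries tested over 20 of the genes, 1 library stood far from the others. The rule flags about 1 in 20 where groups are independent and each comes from 1 population. Groups of a whole context pooled its terminators and the genes share libraries, so the count cannot be set against that rate. In pTSA1-tTSA1, WT replicate 1 was highest for UTP6 at 78.2 CPM (the next library had 50.94) and for NOP2 at 131.5 CPM (next 89.56), and WT replicate 2 was lowest for RRP46 at 39.25 CPM (next 45.72). In pPGK1-tRPS3, modNAA replicate 2 was lowest for NOP10 at 362.3 CPM (next 469.0) and for RRP6 at 36.33 CPM (next 55.14). The WT libraries of the same context were highest for RRP7, at 25.28 CPM in replicate 2 (next 16.02), and for UTP18, at 38.81 CPM in replicate 1 (next 31.6). Among the 4 modNNN libraries of pRPS3-tRPS3, replicate 4 was lowest for RRP42 at 32.5 CPM (next 52.7).

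The mean summed level of the 52 genes lay above that of modNNN in some contexts and below it in others for 2 terminators. These differences were not tested. The unmodified terminator minus modNNN gave −572.0 CPM in pRPS3-tRPS3, 760.6 CPM in pPGK1-tRPS3 and 852.2 CPM in pTSA1-tTSA1. For modNTN minus modNNN it was −1541 CPM in pRPS3-tRPS3, 181.7 CPM in pPGK1-tRPS3 and −486.9 CPM in pTSA1-tTSA1. Some of these lie within the spread of modNNN. The WT libraries of pRPS3-tRPS3, at 6130 and 6377 CPM, lay inside its modNNN range of 5794 to 7582 CPM. In the other contexts both WT libraries lay above modNNN. The modNTN libraries of pPGK1-tRPS3, at 4999 and 5361 CPM, lay inside its modNNN range of 4578 to 5418 CPM. In pTSA1-tTSA1 modNTN overlapped modNNN, and in pRPS3-tRPS3 it lay below.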

How the results depend on the processing

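The 42 calls in pTSA1-tTSA1 against pRPS3-tRPS3 were kept under all 10 alternatives, and leaving out 1 library gave 42 to 43. Leaving out 1 library gave 17 to 22 calls in pPGK1-tRPS3 against pRPS3-tRPS3, 50 to 51 in pTSA1-tTSA1 against pPGK1-tRPS3 and 35 to 45 in pTSA1-tTSA1 against POT1-ccdB. The cause of the following changes was not tested. All reporters against POT1-ccdB gave 15 calls with 1 coefficient per context and 3 to 28 without 1 library. For pRPS3-tRPS3 against POT1-ccdB there was 1 call with the replicate block and 0 to 1 without 1 library. For pPGK1-tRPS3 against POT1-ccdB there were 10 with library totals, 1 with only the groups compared, 3 with 1 coefficient per context and 0 to 8 without 1 library. For modHTH there was 1 with the replicate block, 2 with the residual component, 1 with DESeq2 and 0 to 3 without 1 library, and modNAA gave 0 to 1. Signs turned only for values not called under that alternative. NOP1 in pTSA1-tTSA1 against pRPS3-tRPS3 was −0.011 with library totals and −0.015 with 1 coefficient per context, and NOP10 −0.025 with the latter. With library totals, RRP4 and RRP40 in pPGK1-tRPS3 against pRPS3-tRPS3 were 0.051 and 0.146, and RRP43 in pTSA1-tTSA1 against pPGK1-tRPS3 was −0.026. Against POT1-ccdB, NOP1 was 0.0093 with library totals, 0.0015 with upper-quartile scaling and 0.018 with 1 coefficient per context. NOP56 was −0.023 with at least 10 counts in every library, −0.0051 with DESeq2 and −0.0029 with totals over host features, an alternative chosen after seeing the data. Without 1 library, RRP46 ran from −0.030 to 0.066 and RRP40 from −0.084 to 0.011 in pPGK1-tRPS3 against pRPS3-tRPS3. Against POT1-ccdB, NOP1 ran from −0.024 to 0.0083, RRP46 from −0.013 to 0.18 and NOP56 from −0.12 to 0.12. Over 105 pairs of groups, the deviations of same-numbered libraries had a median correlation of 0.02 (−0.39 to 0.60, with 34 over 0.1). Whether the numbers pair samples in part of the plasmids was not tested. With the replicate block, 52 values, each of a named gene in 1 comparison, kept direction and call. Over all tested UTP, NOP and RRP genes, the block added 4 calls in pPGK1-tRPS3 against pRPS3-tRPS3. It added 1 in pTSA1-tTSA1 against pRPS3-tRPS3, and 0 were lost in either. POT1-ccdB had 2 libraries, which limits every comparison with it.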
